A study of Caenorhabditis elegans with 2 samples.

Results

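The piRNA clusters of Caenorhabditis elegans are 2 intervals of chromosome IV, at 4.5 to 7 Mb (called the left cluster here) and 13.5 to 17.2 Mb (the right cluster), and the regions described are those that the authors' ChIP-seq list placed there. A region was counted when its midpoint, the point within the region that the deposited file gives, lay inside either interval. By that rule 299 of the 3817 regions of the joint list were in the clusters, 111 on the left and 188 on the right. The remaining 415 regions of chromosome IV served as the comparison, together with 3084 regions on the other nuclear chromosomes. Signal did not enter the choice.

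The study mapped NHR-12, a nematode nuclear hormone receptor, by chromatin immunoprecipitation and sequencing in whole L1 larvae, the first larval stage. The animals were of mixed sex and of strain OP318, whose genotype is unc-119(ed3) III; wgIs318, and they stably expressed NHR-12 fused at its C terminus to GFP and FLAG. The series held 1 group of 2 biological replicates and no second condition. The labels do not give the promoter of the transgene or the cells that express it, so each region is a sum over all tissues of the larva. The joint list was called on both replicates together, the replicate lists on each alone, and the IDR set is the part of the joint list that passed the authors' threshold on the irreproducible discovery rate.

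piRNAs of C. elegans, also named 21U-RNAs, are small RNAs that guide the Piwi protein PRG-1 to foreign and germline transcripts, and they act in the germline. Most are made from short single genes packed into the chromosome IV clusters, each with a promoter of its own whose core upstream element is bound by a complex that includes SNPC-4 and PRDE-1. The clusters also hold ordinary protein-coding genes, and their DNA is rich in A and T.

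The intervals fit the annotation: 14204 of the 15363 annotated piRNA genes, or 92.5%, lay in the clusters, and 510 lay on the rest of chromosome IV. The right cluster was the denser of the pair, with 3078 piRNA genes per Mb against 1126 per Mb on the left. The letters CTGTTTCA, the core of the upstream element, were found within 100 bases upstream of 5002 cluster piRNA genes, which is 35.2%, and in 89.6% of those genes the match began 48 to 44 bases before the 5′ end. The gene 21ur-2033 is printed because it lies 99 bp from the midpoint of the strongest cluster region that was close to a piRNA gene and also held these letters. The lines give the RNA as annotated, the same gene with 60 bases upstream, and the 201 bases around the midpoint of the region. All are on the plus strand of ce11, read 5′ to 3′, and capitals mark CTGTTTCA or its reverse complement TGAAACAG.
21ur-2033, chrIV:16276163-16276183: tccagtgtgcacaaaatatgg
21ur-2033 with upstream bases, chrIV:16276103-16276183: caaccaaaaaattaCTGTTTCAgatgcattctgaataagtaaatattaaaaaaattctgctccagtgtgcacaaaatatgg
Region beside 21ur-2033, chrIV:16275964-16276164: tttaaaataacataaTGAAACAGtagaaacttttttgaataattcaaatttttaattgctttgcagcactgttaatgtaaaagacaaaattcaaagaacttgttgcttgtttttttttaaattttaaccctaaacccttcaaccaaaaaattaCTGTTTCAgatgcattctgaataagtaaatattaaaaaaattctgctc

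The clusters' peaks in the IDR set lay further from piRNA genes. These 4 windows of 201 bases, on the plus strand of ce11 and centred on the midpoints, are shown because they are the clusters' only peaks in the IDR set and none lies within 1000 bp of a piRNA 5′ end. They are the peaks at rpl-20, mir-52, sqd-1 and mrps-7. Capitals again mark the upstream element in either orientation, which occurred once, at mir-52.
rpl-20 peak, chrIV:4749965-4750165: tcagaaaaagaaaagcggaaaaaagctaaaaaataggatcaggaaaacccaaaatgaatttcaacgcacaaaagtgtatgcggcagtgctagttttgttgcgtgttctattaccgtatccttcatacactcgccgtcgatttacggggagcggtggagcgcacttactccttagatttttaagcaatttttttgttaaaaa
mir-52 peak, chrIV:14033988-14034188: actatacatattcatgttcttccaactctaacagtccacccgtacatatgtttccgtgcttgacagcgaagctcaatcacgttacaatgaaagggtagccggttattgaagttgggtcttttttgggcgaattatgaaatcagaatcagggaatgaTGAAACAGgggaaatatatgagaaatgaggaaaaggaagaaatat
sqd-1 peak, chrIV:6323724-6323924: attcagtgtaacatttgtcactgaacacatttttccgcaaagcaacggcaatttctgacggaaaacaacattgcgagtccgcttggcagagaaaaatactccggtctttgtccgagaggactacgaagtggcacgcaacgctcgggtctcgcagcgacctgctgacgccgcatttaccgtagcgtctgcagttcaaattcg
mrps-7 peak, chrIV:14767819-14768019: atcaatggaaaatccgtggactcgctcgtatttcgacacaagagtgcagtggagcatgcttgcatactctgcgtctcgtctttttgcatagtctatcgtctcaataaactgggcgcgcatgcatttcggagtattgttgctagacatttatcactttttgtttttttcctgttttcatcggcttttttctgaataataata

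In the joint list the clusters held more regions per Mb than the rest of the chromosome, and few regions of either part reached the IDR set. The joint list had 48.2 regions per Mb in the clusters (95% Poisson interval 42.9 to 54.0) and 36.7 per Mb on the rest of chromosome IV (33.3 to 40.5), a ratio of 1.31. The other nuclear chromosomes together had 37.3 per Mb, close to the rest of chromosome IV. Singly they ranged from 30.4 on V to 43.9 on I, with 42.4 on III. The left cluster stood at 44.4 per Mb (36.5 to 53.5) and the right at 50.8 (43.8 to 58.6), with overlapping intervals, and the left interval also overlapped that of the rest. All intervals here are exact, cover counting error only, and come from 1 list without a test between conditions.

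The replicates did not give the same contrast. Replicate 1 listed 2108 regions in the clusters, or 340 per Mb (326 to 355), against 259 per Mb (250 to 269) on the rest of the chromosome, again a ratio of 1.31. In that list the right cluster, at 361 per Mb (342 to 381), was above the left, at 308 (287 to 331). Replicate 2 listed 1952 cluster regions, or 315 per Mb (301 to 329), against 293 per Mb (283 to 303), a ratio of 1.08. The other nuclear chromosomes ranged singly from 239 per Mb on V to 285 on I in replicate 1. In replicate 2 they ranged from 272 on V to 318 on X. The intervals of cluster and rest were apart in the joint list and in replicate 1 and overlapped in replicate 2. As a share of all chromosome IV regions, the clusters held 41.9% in the joint list (38.2 to 45.6), 41.9% in replicate 1 and 37.1% in replicate 2 (35.8 to 38.4), beside 35.4% of the chromosome's length.

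**Figure D1:**
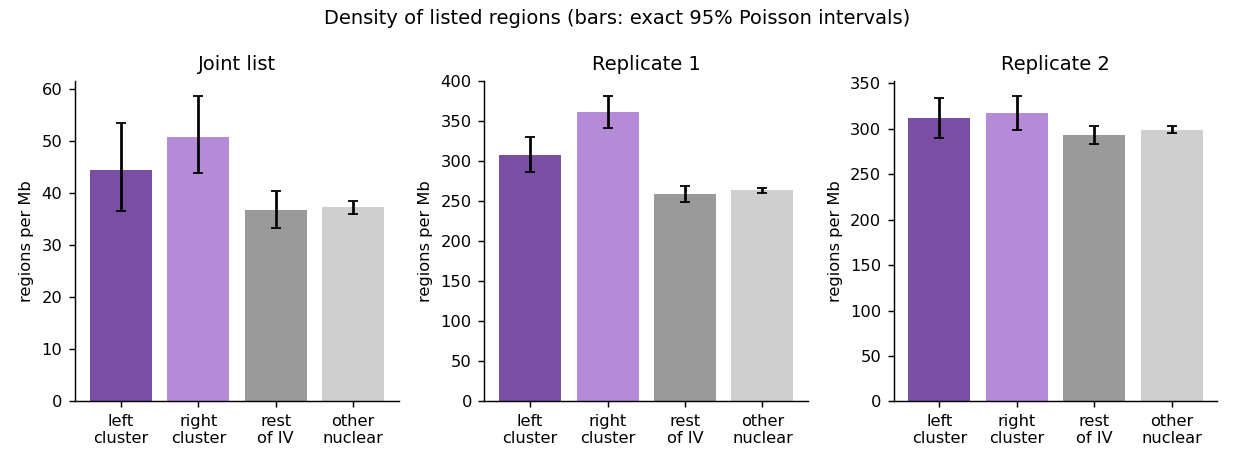
Regions per Mb in the left cluster, the right cluster, the rest of chromosome IV and the other nuclear chromosomes, in the joint list and in each replicate list; error bars are exact 95% Poisson intervals and each panel has its own scale. The right cluster stands above the rest in the joint list (50.8 against 36.7) and both clusters do in replicate 1, the left cluster's interval in the joint list (36.5 to 53.5) overlaps that of the rest, and in replicate 2 the ratio is 1.08.

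Along the chromosome the density was uneven within each cluster. In bins of 0.5 Mb the left cluster held 14 to 30 joint regions with a median of 22, the right 20 to 35 with a median of 25, and the rest of chromosome IV 11 to 30 with a median of 17. The bin with 35 regions began at 14 Mb and held 1677 piRNA genes. On the left, the joint list had 30 regions in the bin beginning at 6.5 Mb, with 227 piRNA genes, and 14 in the bin before it, with 683. The replicate lists did not show that step, with 154 and 144 regions in replicate 1 and 155 and 156 in replicate 2, and both had their highest left count, 185 and 186, in the bin beginning at 5.5 Mb, which held the most piRNA genes of that cluster, 978. The bin beginning at 17 Mb, which the right cluster fills only in part, was left out of these ranges and held 15 joint regions. In replicate 1 the full bins of the right cluster, at 158 to 223 regions, were all above those of the rest, at 108 to 147, whereas in replicate 2 the ranges of 142 to 174 and 117 to 167 overlapped.

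Members were all 376 bp wide, and 4 neighbouring pairs overlapped. Midpoints of neighbours were a median of 13365 bp apart, with a range of 201 to 127969 bp. The signals of the members just inside the edges and of the regions just outside are a description, with no test. On the left cluster's lower edge the signals were 28.3 inside and 24.1 outside, and on its upper edge 17.8 and 20.8. On the right cluster they were 21.5 and 17.6 at the lower edge and 19.5 and 17.4 at the upper.

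Signal is a score set by the authors' caller, of unstated scale, and is used only to order regions within a list. In the joint list the members had a median signal of 19.1 (95% interval 18.8 to 19.7), with a range of 17.2 to 80.2, and the rest of chromosome IV had a median of 19.7 (19.4 to 19.96). The left and right medians were 18.8 and 19.5. Of the members 20.7% (16.3 to 25.8) were in the highest 25% of the nuclear joint list by signal and 29.4% (24.3 to 34.95) in the lowest 25%. Both intervals held 25%, and the rest of chromosome IV had 22.4% and 25.1%. Among the 500 strongest joint regions stood 7.69% of members (4.94 to 11.3), 10.6% of the rest of chromosome IV and 13.4% of the other chromosomes. The clusters supplied 9 of the 200 strongest nuclear regions of the joint list, 14 of those of replicate 1 and 8 of those of replicate 2. They covered 6.18% of the nuclear genome. Of all nuclear regions they held 299 of 3798 in the joint list, 2108 of 26857 in replicate 1 and 1952 of 30000 in replicate 2. Each count among the 200 strongest was below the clusters' share of that list.

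Few members reached the IDR set. In the whole joint list 4.3% of regions were in the IDR set. Of the members 4 of 299, or 1.34% (0.366 to 3.39), were in it, beside 8 of 415, or 1.93% (0.836 to 3.76), on the rest of chromosome IV and 4.35% (3.65 to 5.13) on the other nuclear chromosomes. Chromosome IV as a whole was thus low, and the intervals of its clusters and its remainder overlapped. Per Mb the clusters had 0.645 IDR peaks, the rest of chromosome IV 0.708 and the other chromosomes 1.62. Singly, the other chromosomes ranged from 0.765 on V to 2.72 on I, and the whole of chromosome IV had 0.686. In the authors' ce10 lists, whose IDR set reached lower signals, the order of the chromosome IV shares turned: 10 of 261 cluster regions were IDR peaks, 3.83% (1.85 to 6.93), and 10 of 355 on the rest, 2.82% (1.36 to 5.12).

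**Figure D2:**
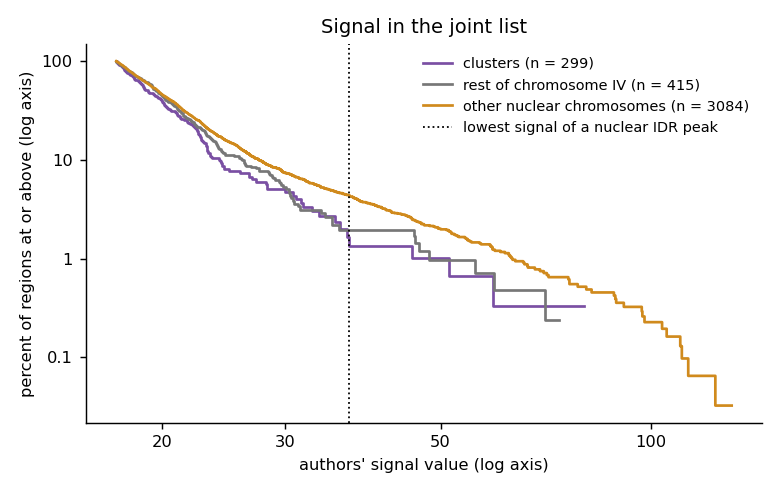
Percent of joint regions at or above each signal value, on log axes, for the 299 cluster regions, the 415 on the rest of chromosome IV and the 3084 on other nuclear chromosomes; the dotted line is the lowest signal of a nuclear IDR peak, 37.1. Towards high signal both chromosome IV curves run below that of the other chromosomes, while near the median the rest of chromosome IV (19.7) is close to the other chromosomes (19.7) and the clusters are lower (19.1), and 1.34% of cluster regions reach the line.

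The 4 IDR peaks lay 2 in each cluster, 3 in promoter windows and 1 over a microRNA gene. Of all 146 nuclear IDR peaks 79, or 54.1%, were in promoter windows, and 5 of 8 on the rest of chromosome IV. With 4 peaks, a count of 3 does not stand apart from these shares. The strongest, at 4749877 to 4750252 of the left cluster, stood between rpl-20, a protein of the large ribosomal subunit, and Y17G9B.5, in the promoter windows of both. A promoter window here begins 500 bp before the 5′ end of a protein-coding gene and ends 200 bp inside it, and the midpoint was 175 bp upstream of Y17G9B.5. The joint signal was 80.2, rank 31 of the joint list, and the region was rank 73 in replicate 1 and rank 8 in replicate 2, the best cluster rank of that list. It was therefore near the top of all 3 lists.

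The peak at 14033900 to 14034275 of the right cluster held the whole annotated gene of the microRNA mir-52, at 14034008 to 14034107 on the plus strand, and a noncoding RNA gene on the other strand, Y37A1B.335. mir-52 belongs to the mir-51 family of abundant C. elegans microRNAs. Its joint signal was 59.5, with rank 35 in replicate 1 and rank 214 in replicate 2. This was the only IDR peak of the clusters outside a protein-coding promoter window, and the nearest piRNA gene, 21ur-2841, was 1113 bp away.

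The other IDR peaks were at promoters too. At 6323636 to 6324011 the midpoint was 350 bp upstream of sqd-1, which encodes an RNA-binding protein of the hnRNP kind, with a joint signal of 51.4 and ranks 76 and 92 in replicates 1 and 2. At 14767731 to 14768106 it was 189 bp upstream of mrps-7, a protein of the mitochondrial ribosome, and also in the window of Y57G11C.3, with a joint signal of 45.6. That last peak was far less even between replicates, at rank 3047 in replicate 1 and rank 61 in replicate 2.

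Outside the IDR set the strongest members were a mixed group of introns, intergenic DNA and promoters. The first of them, an intergenic region 3302 bp upstream of C01G5.7, had a signal of 37.0, just under the lowest IDR value of 37.1, and was listed in replicate 1 alone, at rank 150. The next lay in an intron of skn-1, which encodes a transcription factor of the stress response and of early development, with a signal of 36.8 and a listing in replicate 2 alone, at rank 54. A region in an intron of fkh-7, a forkhead transcription factor gene, had a signal of 35.9 and ranks 5161 and 184. For all 3, then, the high joint signal came with a high rank in only 1 replicate. A further intronic member of skn-1, which overlaps the one above, had a signal of 28.2 and was listed in both replicates, at ranks 7708 and 354. A listing in 1 replicate alone thus depends on the limit of 100 bp between midpoints given below.

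The remaining 5 of the 12 strongest members were listed in both replicates, each with a better rank in replicate 1. They were the promoters of W03F8.4 (signal 33.5, ranks 152 and 989), dld-1 (31.8, ranks 202 and 324) and ntl-11 (31.6, ranks 221 and 754), and 2 regions close to piRNA genes. dld-1 encodes dihydrolipoamide dehydrogenase, an enzyme of mitochondrial metabolism, and ntl-11 a subunit of the CCR4-NOT deadenylase complex. Of the piRNA-side regions, one was intergenic, 51 bp upstream of 21ur-7503 (35.3, ranks 256 and 880), and the other lay in an intron of Y105C5A.15, 129 bp downstream of the 5′ end of 21ur-2733 (32.8, ranks 205 and 2474). Of the 12 strongest members 6 were in promoter windows, 2 were within 200 bp of a piRNA 5′ end and 10 were listed in both replicates.

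Most members recurred in at least 1 replicate list, fewer in both. A member counted as listed where a replicate region's midpoint was within 100 bp. Replicate 1 listed 225 members and replicate 2 listed 198, and 7 were in neither. Both listed 131 members, or 43.8% (38.1 to 49.6), where 50.4% of all nuclear joint regions and 53.7% (48.8 to 58.6) of those on the rest of chromosome IV were so listed. The joint list was made from the same reads, so a shared listing is no independent check of a member.

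Members listed in both replicates seldom ranked high in both. Of the 131, 25 were within rank 1000 in replicate 1 and 15 in replicate 2, and 7 in both. These counts were not made outside the clusters, so they are not shown to be particular to the members. Over all members listed in each replicate, the median rank was 3685 in the list of 26878 regions of replicate 1, from 35 to 26846, and 5590 in the 30000 of replicate 2, from 8 to 29585. Regions on the rest of chromosome IV had medians of 4051 and 5341. Listing in both rose with signal, from 34.1% (24.3 to 44.97) of the 88 members in the lowest 25% of signal to 66.1% (53.0 to 77.7) of the 62 in the highest 25%, and from 42.3% to 72.0% on the rest of the chromosome. Taken over the whole replicate lists, 12.8% of replicate 1's cluster regions had a replicate 2 region within 100 bp, beside 14.7% on the rest of the chromosome, and 13.8% of replicate 2's cluster regions had a replicate 1 region, beside 12.97% on the rest.

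**Figure D3:**
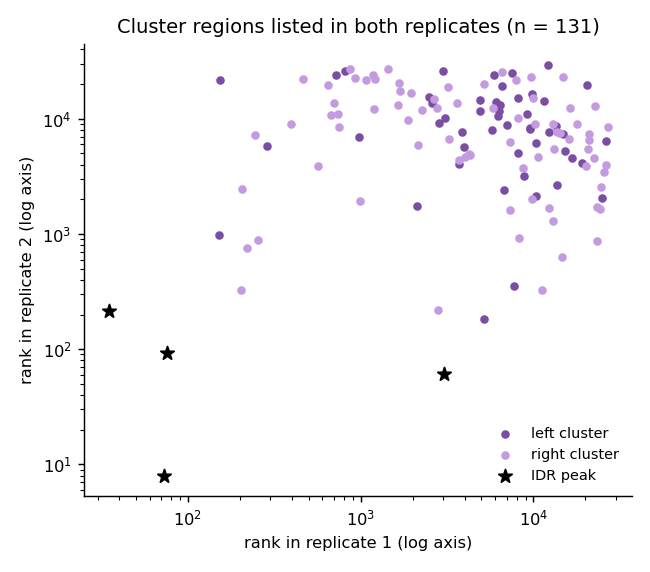
Rank in replicate 1 against rank in replicate 2, both on log axes, for the 131 cluster regions listed in both; stars are the 4 IDR peaks. Of the stars 3 have ranks of 214 or better in both lists, the other has ranks 3047 and 61, and most other regions lie beyond rank 1000 in at least 1 list.

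Members were found in promoter windows less often than nuclear regions in general, in a part of the genome with fewer such windows. In all, 47 members, or 15.7% (11.8 to 20.3), had the midpoint in a promoter window, beside 22.4% of all nuclear joint regions and 22.4% on the rest of chromosome IV. Promoter windows took 10.03% of the clusters' bases and 13.5% of those of the rest, so both parts stood above their own base share. The margin was wider on the left, with 23.4% of regions on 12.6% of bases, while the right had 11.2% of regions (7.05 to 16.6) on 8.30% of bases. In the longer replicate lists the clusters' promoter shares, 9.82% in replicate 1 and 11.1% in replicate 2, were near the base share. Of the 941 protein-coding genes in the clusters 51, or 5.42%, had a member in the window, close to 4.98% of all protein-coding genes.

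Elsewhere in the clusters, coding exons held fewer members than their bases would. Coding exons held 5.02% of members on 14.9% of bases, and on the rest of chromosome IV 9.40% on 22.8%. Introns held 27.4% of members on 28.3% of bases and intergenic DNA 46.2% on 43.7%, both near their base shares. Noncoding RNA genes other than piRNA genes, counted only outside protein-coding genes and promoter windows, held 7 members, 2.34% on 0.884% of bases. Of the 7, 3 lay in the same gene, Y41E3.461, named after its values were seen. A midpoint in a noncoding RNA gene that lies within an intron was counted as intron.

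Protein-coding genes of the piRNA pathway itself were not among the genes with a joint region. Of 34 annotated genes in lists for piRNA transcription, for processing and for the effector proteins, wherever they lie in the genome, 0 had a joint region in the promoter window, against 4.98% of all protein-coding genes. With 34 genes, a count of 0 is too small to stand apart from 4.98%. Replicate 1 listed a region at 7 of the 34 and replicate 2 at 3, beside 21.4% and 24.8% of all genes. These names were chosen after their values were seen: in replicate 1 the region ranks were 3131 at snpc-4, the gene of the piRNA promoter-binding factor, 5257 at snpc-1.3, which acts in piRNA transcription of the male germline, and 13000 at tofu-4, and in replicate 2 snpc-4 and snpc-1.3 were at ranks 22634 and 19073. At the other listed genes the replicate 1 ranks were 5060 at set-25, 17105 at ife-3, 21683 at parn-1 and 23886 at pid-2. In replicate 2 parn-1 was at rank 14270. None of these was near the top of either list.

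Among gene families inside the clusters, few genes had a joint region, and the families are small beside the 5.42% of all cluster genes that had one. For ribosomal protein genes, joint regions were in the windows of 3 of the 5, namely rpl-20 with a signal of 80.2, rpl-29 with 23.5 and rpl-18 with 19.95. Counting any replicate midpoint in the window, replicate 1 had regions at rpl-20, rpl-29 and, at rank 25058, rps-18, and replicate 2 at rpl-20 and rpl-18, so only rpl-20 had one in both. This family was picked with earlier results of these data known, and its count is no independent evidence. Major sperm protein genes had 0 of 9, other sperm families 0 of 6, nuclear hormone receptor genes 0 of 5, collagens 0 of 6 and C-type lectins 0 of 9, counts too small to stand apart from 5.42%. Among F-box and MATH genes 1 of 7 had one, fbxa-83 with a signal of 17.8, and among chemoreceptor genes 1 of 78, srt-48 with 18.8. At the F-box and MATH genes replicate 1 had a region in 1 of 7 windows and replicate 2 in 4 of 7. Of all cluster genes 23.3% had one in replicate 1 and 24.0% in replicate 2, which is also the background of the ribosomal protein counts by replicate.

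The members lay closer to piRNA 5′ ends than the bases of the clusters do on average. Within 200 bp of one were 172 of 299 members, or 57.5% (51.7 to 63.2), beside 45.4% of cluster bases. The right cluster had 70.7% (63.7 to 77.1) on 56.4% of bases. The left had 35.1% (26.3 to 44.8) on 29.1% of bases, which was inside its interval. Replicate 1 gave 62.0% (59.8 to 64.0) and replicate 2 55.2% (52.9 to 57.4) for both clusters together, each above the base share. Leaving out a replicate, the strongest regions of the other took the place of the joint list. Without replicate 1, 128 of 256 such cluster regions were near, 50% (43.7 to 56.3), an interval that held the base share. Without replicate 2 the share was 63.8% (58.3 to 69.0). The median distance was 129 bp for the members and 249 bp for the bases.

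By distance, the joint list's surplus was within 100 bp, and its clearest deficit was between 500 and 1000 bp. Up to 50 bp from a 5′ end were 69 members, or 23.1% on 16.8% of bases, and the next 50 bp had 57 members, or 19.1% on 12.96%. From there to 200 bp, shares were 15.4% of members and 15.6% of bases, but 18.2% of replicate 1's and 17.9% of replicate 2's cluster regions, so in those lists the surplus reached 200 bp. Between 500 and 1000 bp were 8 members, 2.68% on 8.67% of bases, and beyond 1000 bp 79 members, 26.4% on 29.4%. Beyond 1000 bp the replicates were further under the base share, at 19.3% and 22.8%. Of the 172 members within 200 bp, 52.9% had the midpoint on the upstream side, beside 50.4% of bases, a nearly even split between the promoter side and the other. By signal, the share near a piRNA gene was 57.95% (46.95 to 68.4) in the weakest 25% and 48.4% (35.5 to 61.4) in the strongest 25%, with overlapping intervals.

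**Figure D4:**
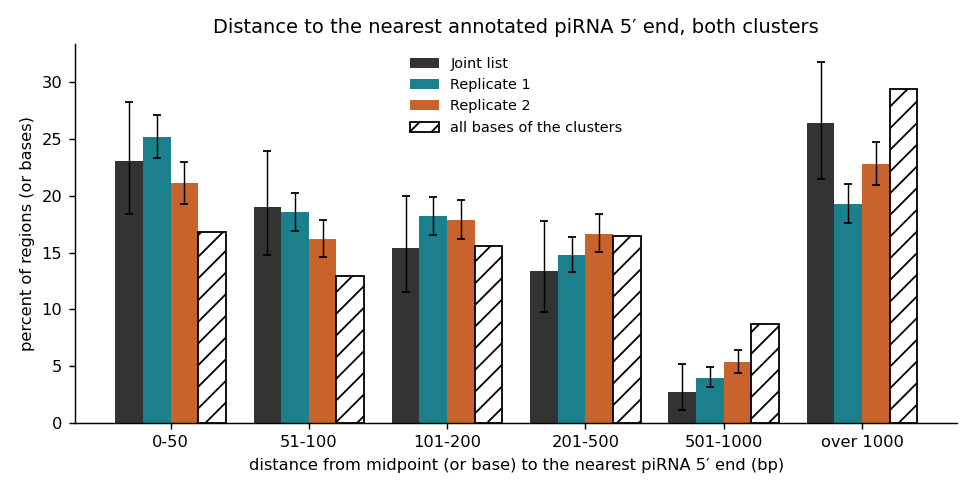
Percent of cluster regions in each band of distance to the nearest annotated piRNA 5′ end for the joint list and each replicate, with exact 95% binomial intervals, and percent of all cluster bases (hatched). Regions exceed bases up to 100 bp in all 3 lists (23.1% against 16.8% in the first band of the joint list) and fall under them between 500 and 1000 bp (2.68% against 8.67%).

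Counted by gene, members touched 394 of the 14204 cluster piRNA genes, 2.77% (2.51 to 3.06), where 1.90% of all stretches of the same 21 bases in the clusters were touched. Leaving out replicate 1 brought the share of genes to 1.81% (1.60 to 2.04), and leaving out replicate 2 to 3.34%. Those lists held 256 and 326 cluster regions, so the 1.90% of stretches, which belongs to the joint list, is no background for them. Replicate 1 touched 19.3% of the genes on 13.6% of stretches and replicate 2 touched 15.2% on 11.8%. The IDR peaks touched 0 of 14204, which allows a share of up to 0.0260%, and they reached 0.0255% of stretches, so the count of 0 was not separated from the share of stretches. A member touched at most 8 piRNA genes, and 125 touched none. Neighbouring piRNA genes share a region, so these genes are not independent of one another.

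piRNA genes with the upstream element were not touched more often than those without it in any list. In the joint list genes with CTGTTTCA upstream were touched at 2.66% (2.23 to 3.14) and genes without it at 2.84% (2.51 to 3.196). In replicate 1 the values were 18.03% (16.98 to 19.1) and 20.02% (19.2 to 20.8), lower with the element and with intervals apart, and in replicate 2 they were 15.21% and 15.26%. Within 100 bp of the midpoint, 53 members held the letters in either orientation, 17.7% (13.6 to 22.5), beside 14.7% of all cluster windows of 201 bases. The element was rare elsewhere, in 1.205% of regions and 1.55% of windows on the rest of chromosome IV. Of the 53 members with it 51 were within 200 bp of a piRNA 5′ end. The share over all cluster windows with these letters is not given here, so the count is not shown to be particular to the members. A match of letters is a description of the window and does not show a bound site.

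Base composition moved with these results. The members' windows had a median G+C of 29.4% beside 31.8% over cluster windows, and regions on the rest of chromosome IV 32.8% beside 35.3%. Repeat and low-complexity sequence, as masked in the RefSeq genome, made up a median of 47.3% of member windows and 40.3% of cluster windows, and on the rest of the chromosome 37.3% and 31.3%. Windows poor in G+C were also those near piRNA genes: 74.3% of cluster windows under 25% G+C were within 200 bp of a 5′ end, and 12.9% of those at 40% or more.

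Comparing windows of like composition made both contrasts smaller. In 5 bands of G+C, cluster and rest densities in the joint list had overlapping intervals in every band, and the ratio was 1.60 in the band under 25% and 1.06 to 1.19 in the other 4. With the rest of chromosome IV's rate in each band applied to the clusters' windows, 252 regions would have been listed where 299 were, a ratio of 1.19 (1.06 to 1.33). The ratio was 1.11 (1.07 to 1.16) in replicate 1 and 1.03 (0.988 to 1.08) in replicate 2. These intervals count the cluster regions' error alone. In replicate 2 the clusters were therefore not distinguishable from the rest of the chromosome at like composition.

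The nearness to piRNA genes shrank in the same way. With cluster windows weighted to the members' own G+C bands, 51.8% would have been within 200 bp of a piRNA 5′ end, a value at the lower edge of the members' 57.5% (51.7 to 63.2). Replicate 1 had 62.0% (59.8 to 64.0) against a weighted 54.2% and replicate 2 had 55.2% (52.9 to 57.4) against 48.5%, so some of the surplus was left in both. The band at 25 to 30% G+C carried much of it, with 78.4% (68.8 to 86.1) of its 97 members near a piRNA gene against 63.9% of its windows. Repeat content was not weighted in this way, and its part in the result was not tested.

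**Figure D5:**
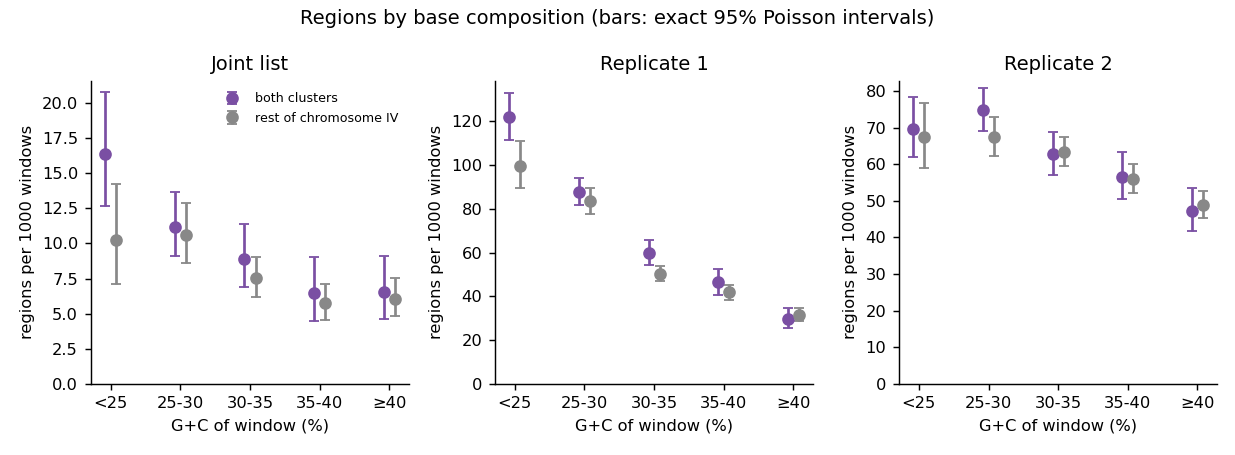
Regions per 1000 windows of 201 bases in 5 bands of G+C, for the clusters and the rest of chromosome IV, in each list; points carry exact 95% Poisson intervals and each panel has its own scale. In all 3 lists the bands under 30% hold more regions than the bands at 35% or more, and in the joint list the cluster and rest intervals overlap in every band, with the widest ratio, 1.60, under 25%.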

How the data were processed

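The files were lists of regions per replicate, a joint list and an IDR set for builds ce11 and ce10. Each region carries a signal score, per the deposited narrowPeak columns as the authors' peak caller gave it. Regions were called against 1 control file. Aligner, caller, versions and IDR threshold are not given in the sources used here. The lists hold no read counts, so depth is unknown. The joint and replicate lists include background regions. The 2 biological replicates form 1 group, so no test between groups was made, and p-values are not given.

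Members, gene lists and windows were chosen with earlier results of these data known. Genes were named if they belonged to a piRNA list and had a joint region, lay nearest an IDR peak or 1 of the 12 strongest members, or were family members with a joint region, at most 4 a family. Coordinates are ce11, counted from 1, annotated with Ensembl release 115. Windows were 100 bp on either side of the midpoint, with sequence from the RefSeq genome of the same build. Base shares used every base of the intervals, and windows compared by G+C were tiled end to end. The weighting by G+C was chosen after seeing the data. Shares have exact (Clopper-Pearson) 95% binomial intervals, densities exact Poisson intervals and medians order-statistic intervals, all for counting error only. Neighbouring regions were treated as independent. The procedure was tested on simulated midpoints. Python 3.11.15, numpy 2.4.6, pandas 2.3.3 and scipy 1.17.1 were used. Mitochondrial regions were left out of comparisons of position and sequence.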

Additional observations from a re-analysis of the deposited data

How the results depend on the processing

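Of 56 alternatives 32 stayed within the counting interval and 24 moved beyond it. Some changed the measure itself, such as a distance, a match limit or a signal cut, where a shift follows from the setting. Only the share of chromosome IV regions was scored against its background, and the other results were scored as they stood. The tally is therefore no measure of how stable the results are. The share of chromosome IV regions inside the clusters, set against length, stayed within it in all 8 alternatives. 1 of them was restricted to regions of 25 to 35% G+C and chosen after seeing the data. That one gave 43.1% (38.0 to 48.3) beside 39.3% of windows. The stronger 50% gave 38.8% (33.6 to 44.3) beside 35.4% of length, and the left cluster alone 15.5% (12.97 to 18.4) beside 14.3%. These intervals held the share of length or windows, and the others lay above it. The whole replicate 2 list, not among the 8, had a ratio to length of 1.05, beside 1.18 for the joint list. The share of members in the IDR set was 3.83% in ce10, whose IDR set held 10 of 261 cluster regions and reached down to a lower signal of 33.4. The median signal was 22.2 in the stronger 50% of the joint list and 18.8 in the left cluster alone. The share listed in both replicates was 57.7% in the stronger 50%, 30.8% within 50 bp, 61.2% within 200 bp and 69.6% with any overlap. The promoter share was 23.4% on the left, 11.2% on the right and 10.7% with an upstream limit of 250 bp. The share near piRNA genes was 64.8% with bounds 0.25 Mb inwards, 35.1% on the left, 70.7% on the right, 42.1% within 100 bp (29.8% of bases), 70.9% within 500 bp (61.9% of bases) and 64.2% in regions of 25 to 35% G+C. It ranged from 50% to 63.8% leaving out replicate 1 or replicate 2. The share with the motif was 10.8% on the left and 33.1% with 200 bp on either side (26.7% of windows), and 19.9% to 23.6% leaving out a replicate. The share of piRNA genes touched was 1.21% in the stronger 50%, and 1.81% to 3.34% leaving out a replicate. Leaving out a replicate took, from the other's list, its strongest regions in place of the joint list. Unknown depth and 2 replicates limit what can be said of weak regions.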
